A study of Homo sapiens with 8 samples.

Results

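NCCIT is an established human embryonic carcinoma line, the stem cell component of a nonseminomatous germ cell tumour, and this report describes the RNA of its control cells. The members are the 2 arrays whose titles name siNTC, a non-targeting small interfering RNA (siRNA), among 8 arrays in the series. The other 6 arrays hold cells of the same line transfected with siRNA against 1 of the 3 TET dioxygenases, which oxidise 5-methylcytosine (siTET1, siTET2 and siTET3, 2 arrays each). All 4 groups thus share the line, the growth medium with serum and an siRNA transfection, so siNTC is a transfected and not an untreated state. Total RNA was converted to biotin-labelled cDNA and read on the Human Gene 1.0 ST design of Affymetrix, in which groups of probes (transcript clusters) read each gene. NCCIT is 1 line, and the labels do not say whether the arrays came from separate cultures.

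Embryonal carcinoma cells are the malignant counterpart of the pluripotent cells of the early embryo. They keep a network of transcription factors around OCT4, SOX2 and NANOG, together with RNA-binding proteins and growth factors such as LIN28A, CRIPTO and GDF3, and they divide fast while genes of differentiated tissues stay largely inactive. Some germ cell genes are kept as well, since these tumours descend from primordial germ cells.

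The values are log2 intensities. A measure of background was needed, because a silent gene also gives a signal on an array. It was set at the 95th percentile of 341 olfactory receptor genes, which act in the nose, at a log2 intensity of 5.14. A stricter threshold of 7.14 came from 146 genes of other families that are silent in most cells (taste receptors, keratin-associated proteins, late cornified envelope proteins, defensins and interferon alpha). Each gene was also given a percentile, the share of the 18417 measured genes with an equal or lower siNTC mean. Probes differ in how brightly they bind their target, so percentiles order signals and not numbers of RNA molecules, and a gene between the thresholds was neither clearly silent nor clearly expressed. Signals below background have no order, and members named as lowest there are examples.

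Of the 18417 genes, 12761 (69.3%) lay above background on both siNTC arrays, and 8307 (45.1%) lay above the stricter threshold on both. A further 467 genes passed the lower threshold on 1 array, and 5189 were below it on both. The siNTC means ran from 3.48 to 14.19, with a median of 6.73 and quartiles of 4.91 and 8.97. The plot of signal by gene set shows a peak of genes at the signal of the olfactory receptors and a broad shoulder above it. Protein-coding genes passed the stricter threshold in 8010 of 16903 cases (47.4%), long non-coding RNAs in 55 of 634 (8.68%) and small nucleolar RNAs in 102 of 175 (58.3%).

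**Figure D1:**
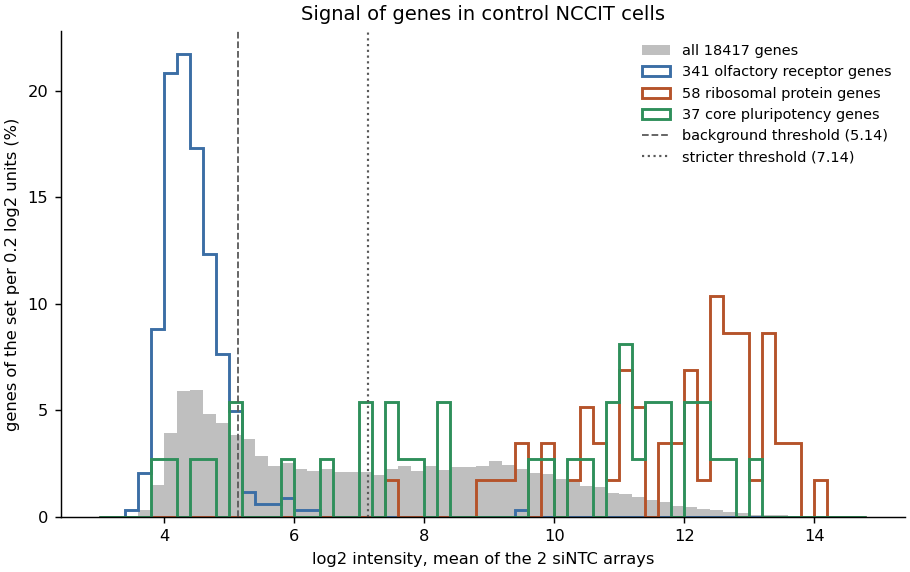
Share of each gene set (%) in bins of 0.2 log2 units of the siNTC mean, for all 18417 genes (grey) and 3 sets. The olfactory receptor genes had a median of 4.37, the ribosomal protein genes lay between 7.45 and 14.19, and the core pluripotency genes spread from 3.83 to 13.05; dashed and dotted lines mark the thresholds of 5.14 and 7.14.

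The replicate arrays were close. Over genes their values correlated at r = 0.998 (genes are not independent replicates), and the median difference of a gene was 0.08 on the log2 scale. Among genes above background, 18 differed by more than 1.5-fold. The largest such differences were in FAM86B2-DT (6.87 and 5.83 on replicates 1 and 2), a long non-coding RNA, GPAT2P2 (5.44 and 6.32), a pseudogene, and RNY1 (6.55 and 5.68), a small cytoplasmic RNA. MED27 (7.04 and 7.81), a Mediator subunit, TUBBP5 (8.45 and 7.69), LOC100419773 (7.32 and 6.61), CMKLR2 (7.28 and 6.59) and ZNF283 (6.07 and 5.39) completed the 8 largest. All pairs of values in the text are given in the order replicate 1, replicate 2.

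The 6 genes that mark the cells were all in the top 5% of signals. CRIPTO, a co-receptor for NODAL-type ligands, was the brightest at 13.09 and 13.00, the 99.7th percentile. SOX2, a core pluripotency transcription factor, was at 12.67 and 12.68 (99.3rd percentile). PODXL, the sialomucin that carries antigens used to recognise pluripotent cells, was at 12.36 and 12.32 (98.8th). DNMT3B, a de novo DNA methyltransferase, followed at 12.02 and 12.01 (98.2nd), ahead of L1TD1, an RNA-binding protein, at 11.38 and 11.34 (96.0th). DPPA3, a maternal factor that guards methylation in the early embryo, was at 11.27 and 11.22 (95.4th). Neighbours in this order did not overlap between arrays. With clusters averaged, DPPA3 was at the 93.8th percentile, outside the top 5%. The 6 markers thus gave signals above both thresholds on both arrays. DPPA3 is also in the lists of germ cell genes and of seminoma and primordial germ cell markers below, and not in that of embryonal carcinoma markers.

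Of 37 measured core pluripotency genes (41 were listed), 31 were above background, against 69.3% of all genes, and 28 were above the stricter threshold, against 45.1%. Their median log2 intensity was 10.31, the median percentile was 89.4, and 18 of the 37 were in the top 10% of signals. TERF1, a telomere-binding protein, was at 12.51 and 12.57. GDF3, a ligand of the transforming growth factor family, was at 12.38 and 12.32, and LIN28A, which blocks the maturation of let-7 microRNAs, was at 12.20 and 12.12. Transcription factors further down the order were SALL4 (11.17 and 11.17), OTX2 (11.09 and 11.16), PRDM14 (10.94 and 10.99) and ZFP42 (11.00 and 10.83).

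Not every gene of the pluripotency list gave a signal. DPPA5, a KH-domain protein of early embryonic cells, was at 3.85 and 3.81, below background on both arrays. NODAL, the ligand that keeps human pluripotent cells undifferentiated, was at 4.12 and 4.01, also below background, while its co-receptor CRIPTO was the brightest of the list. FOXD3 (4.57 and 4.46) and KLF17 (4.73 and 4.65) were also below background on both arrays. VRTN and FOXH1, the latter a partner of SMAD proteins downstream of NODAL, each passed on 1 array. The NODAL targets LEFTY1 (5.91 and 5.99) and LEFTY2 (7.16 and 7.23), inhibitors of the same pathway, lay between and just above the thresholds. POU5F1 and NANOG have no value here, because their clusters list pseudogenes or related copies beside them.

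**Figure D2:**
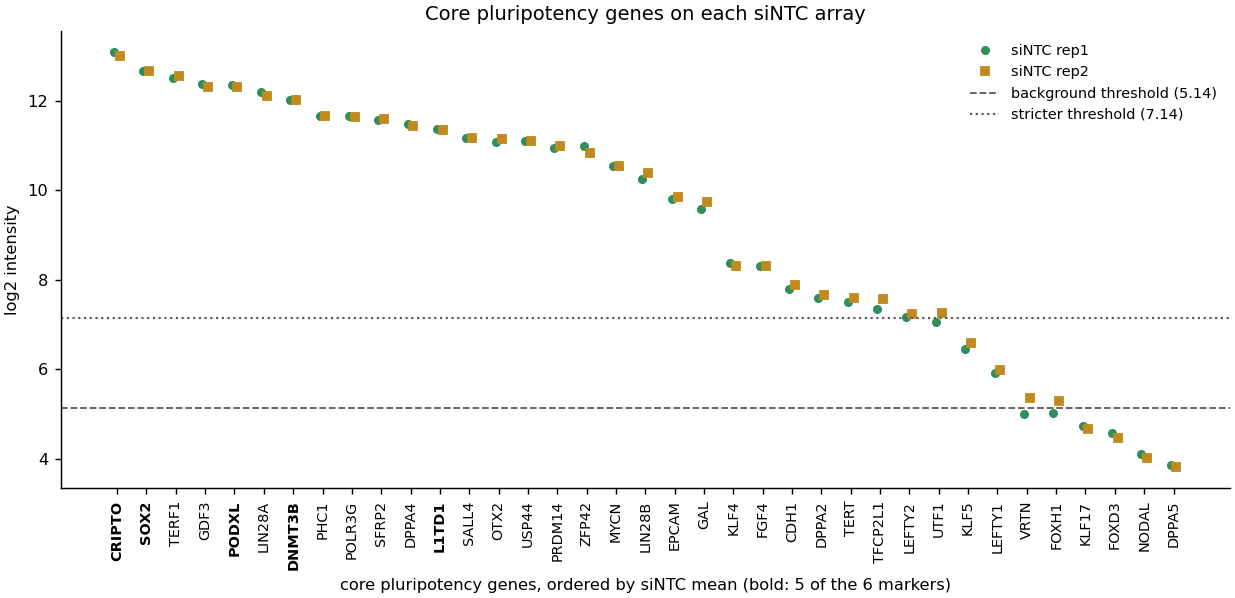
Log2 intensity of the 37 core pluripotency genes on each siNTC array (circles and squares), ordered by their mean. CRIPTO at 13.05 leads and DPPA5 at 3.83 is last; 28 genes are above the stricter threshold (dotted) on both arrays, and KLF17, FOXD3, NODAL and DPPA5 are below the background threshold (dashed) on both.

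A list of embryonal carcinoma markers was set beside a list of markers of seminoma, the other main germ cell tumour, and of primordial germ cells. The series holds no seminoma sample, so whether each listed gene separates these tumours was not tested. All 11 measured embryonal carcinoma markers were above background and 10 passed the stricter threshold, with a median of 12.02. They share 8 genes with the pluripotency list, and those outside it were the simple-epithelium keratins KRT8 (11.42 and 11.40) and KRT18 (10.21 and 10.20) and TNFRSF8, the CD30 antigen (6.99 and 7.16). TNFRSF8 was the lowest of the list, between the thresholds on 1 array and above on the other. Of 10 markers of seminoma and primordial germ cells, 6 (60.0%) were above background, near the 69.3% of all genes. The stricter threshold was passed by 3 (30.0%, against 45.1% of all genes), and the median was 5.81. The 3 were DPPA3, the mucin-type protein PDPN (10.18 and 10.14) and the transcription factor TFAP2C (9.02 and 8.99). The seminoma factor SOX17 (4.66 and 4.73), the germ cell regulator PRDM1 (5.03 and 4.79), SOX15 (5.03 and 4.91) and TCL1A (4.67 and 4.47) were below background on both arrays, and the receptor KIT was close above it at 5.63 and 5.33.

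Sequences upstream of annotated start sites differed in CpG number among a few of these genes. Those below are the 150 bases just upstream of an annotated start site in RefSeq (GRCh38.p14), which need not be the main start of the gene. They read 5′ to 3′ on the gene's strand, with each CG dinucleotide (CpG, the site of DNA methylation) in capitals. SOX2, DNMT3B, GDF3 and DPPA3 are shown as bright pluripotency or germ cell genes, and the pair PGK1 and PGK2 as a widely used enzyme and its testis form. OR5M10 is shown as an olfactory receptor gene below background on both arrays.
SOX2, chr3:181711775-181711924, plus strand: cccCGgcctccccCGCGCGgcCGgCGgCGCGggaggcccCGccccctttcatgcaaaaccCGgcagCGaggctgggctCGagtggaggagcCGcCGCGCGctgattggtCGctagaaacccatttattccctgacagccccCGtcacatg
DNMT3B, chr20:32779702-32779851, plus strand: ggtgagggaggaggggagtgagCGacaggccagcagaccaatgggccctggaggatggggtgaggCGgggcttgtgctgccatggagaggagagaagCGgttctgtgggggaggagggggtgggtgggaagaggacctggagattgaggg
GDF3, chr12:7695776-7695925, minus strand: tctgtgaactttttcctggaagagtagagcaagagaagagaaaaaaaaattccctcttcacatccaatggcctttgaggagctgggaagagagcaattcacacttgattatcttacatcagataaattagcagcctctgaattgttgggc
DPPA3, chr12:7711283-7711432, plus strand: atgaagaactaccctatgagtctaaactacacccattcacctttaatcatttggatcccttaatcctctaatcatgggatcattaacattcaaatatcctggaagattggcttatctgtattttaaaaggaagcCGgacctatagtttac
PGK1, chrX:78104098-78104247, plus strand: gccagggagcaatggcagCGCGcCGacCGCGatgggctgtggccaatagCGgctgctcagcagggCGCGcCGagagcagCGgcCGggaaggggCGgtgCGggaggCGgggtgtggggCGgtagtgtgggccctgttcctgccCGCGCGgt
PGK2, chr6:49787286-49787435, minus strand: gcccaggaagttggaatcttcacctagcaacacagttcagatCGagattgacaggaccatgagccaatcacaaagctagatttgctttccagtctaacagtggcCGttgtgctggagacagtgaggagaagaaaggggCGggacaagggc
OR5M10, chr11:56577722-56577871, minus strand: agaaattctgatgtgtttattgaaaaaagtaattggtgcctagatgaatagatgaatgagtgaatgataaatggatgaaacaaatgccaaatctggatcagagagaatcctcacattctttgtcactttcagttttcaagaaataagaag

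The stretch of SOX2 held 18 CpGs and that of PGK1 18, while DNMT3B had 3, DPPA3 1 and GDF3 0. PGK2 had 3 and OR5M10 0. The printed stretches of DNMT3B and GDF3, genes with signals above the 98th percentile, held as few CpGs as those of PGK2 and OR5M10. A gene can have several start sites. Whether the printed one is the main start of its gene, DNMT3B included, and gave its RNA was not tested. The counts therefore do not describe the promoters in use. PGK1 was at 13.18 and 13.12, PGK2 at 4.05 and 3.94, and OR5M10 at 3.58 and 3.61.

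Across genes, signal was compared with the CpG content of the promoter, since the study sorted promoters by CpG density. The window was 300 bases, 250 before to 50 after the start. The observed number of CG dinucleotides was divided by the number its C and G content would give. Windows at 0.75 or more with at least 55% G and C were classed as high CpG, those under 0.48 as low CpG, and the rest as intermediate. A window was at hand for 13771 of 16903 protein-coding genes (81.5%), and the most CpG-rich one was used where a gene had several. Nearly every window of the table held a CG (33725 of 35116, or 96.0%; CG reads the same on both strands), with a median of 14.

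High-CpG genes were above background in 6888 of 7788 cases (88.4%) and above the stricter threshold in 5109 (65.6%). Intermediate genes passed in 2205 of 2925 cases (75.4%) and, strictly, in 1505 (51.5%). Low-CpG genes passed in 886 of 3058 cases (29.0%) and, strictly, in 233 (7.62%). The median log2 intensities were 8.21, 7.33 and 4.68 in that order, so the low-CpG class sat near the background threshold. These shares describe genes, with no test. The low-CpG class holds families that set the thresholds, among them 267 olfactory receptor and 53 keratin-associated protein genes. Its shares were thus partly fixed in advance. With the least CpG-rich window of each gene, 2110 low-CpG genes of 4616 (45.7%) passed, still below the other classes.

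**Figure D3:**
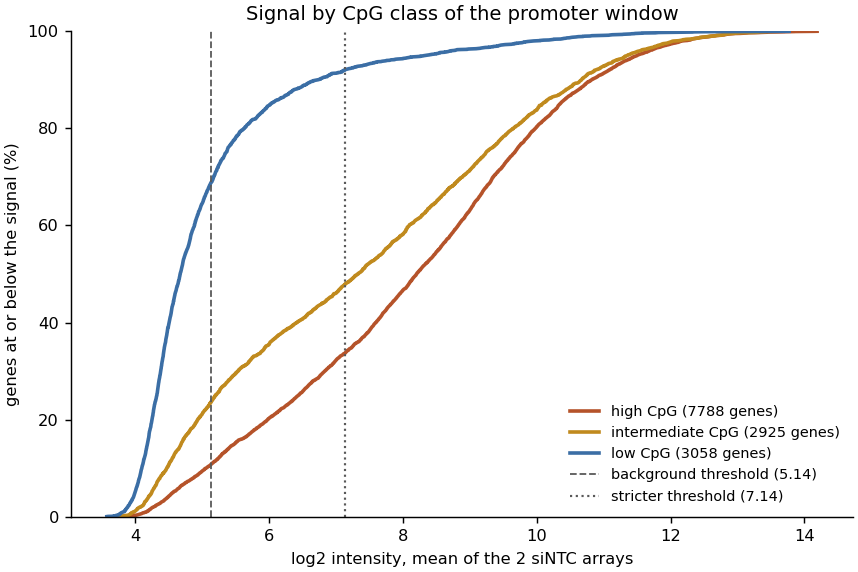
Cumulative share of protein-coding genes (%) at or below a given siNTC mean (log2 intensity), for promoter windows of high, intermediate and low CpG content. On both arrays, 29.0% of the low-CpG genes lay above the dashed background line, against 88.4% of the high-CpG genes; the dotted line marks the stricter threshold.

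Lists with a window for at least 80% of their members were split the same way. Housekeeping genes had 20 high-CpG, 4 intermediate and 0 low-CpG windows, and ribosomal protein genes had 35, 14 and 0. The widely used glycolytic enzymes had 13, 4 and 0, while their tissue-limited relatives had 2, 3 and 6. Olfactory receptor genes had 1 high-CpG, 7 intermediate and 267 low-CpG windows. Among lists with few high-CpG windows, the share above background varied. The clustered protocadherins had 0 high-CpG, 19 intermediate and 6 low-CpG windows. Of their 29 measured members, 24 (82.8%) were above background and 8 (27.6%) above the stricter threshold, against 69.3% and 45.1% of all genes. Late cornified envelope genes had 16 low-CpG windows of 16, with 13 of 17 (76.5%) above background. Only 1 (5.88%) was above the stricter threshold, which this family helped to set. Cancer testis antigen genes had 2, 12 and 6, with 4 of 22 (18.2%) above background and 0 above the stricter threshold. Zinc finger genes named ZNF had 230, 126 and 37. Of the core pluripotency genes 23 of 37 (62.2%) had a window, with 7 high-CpG, 10 intermediate and 6 low-CpG, and of the embryonal carcinoma markers 7 of 11 (63.6%), with 0, 3 and 4. So few of their members had a window that the check is void for these 2 lists, and their counts are printed as an incomplete description.

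Germ cell genes were mostly dim. Of 37 measured, 14 (37.8%) were above background and 5 (13.5%) above the stricter threshold, against 69.3% and 45.1% of all genes. The median was 4.91. The 5 were DPPA3, PDPN, ALPL (10.19 and 10.12), the alkaline phosphatase of bone, liver and kidney, TFAP2C and DND1, an RNA-binding protein that protects germ cell transcripts (mean 8.15 ± 0.22, SD, n = 2). NANOS3, which keeps primordial germ cells alive, was at 6.81 and 6.68 and the germ cell RNA-binding protein DAZL at 5.89 and 6.04, both between the thresholds. The Piwi protein PIWIL2 (4.05 and 3.98), the Tudor protein TDRD9 (4.16 and 3.93) and SPO11, which cuts DNA in meiosis (4.25 and 4.12), were the lowest. DDX4, the VASA helicase of later germ cells, was below background on 1 array and just above it on the other (5.19 and 4.94).

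Cancer testis antigens, which many tumours switch on, gave little signal. Against 69.3% and 45.1% of all genes, 4 of 22 measured genes (18.2%) were above background and 0 above the stricter threshold on both arrays. They were MAGEA8 (mean 7.02 ± 0.021, SD, n = 2), XAGE3 (6.02 and 5.86), PAGE5 (5.93 and 5.76) and MAGEA11 (5.30 and 5.15). SAGE1 (3.85 and 3.67), MAGEA4 (3.83 and 3.70) and MAGEB2 (3.91 and 4.00) were at the bottom, and the median of the list, 4.30, was below that of the olfactory receptors.

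The lineage lists had fewer members above the stricter threshold than the 45.1% of all genes, while their shares above the lower threshold ran from 35.0% for endoderm to 66.7% for neuroectoderm, against 69.3% of all genes. Of 20 yolk sac and endoderm genes, 7 were above background and 1 above the stricter threshold. That 1 was GPC3, a cell-surface proteoglycan of fetal liver and yolk sac, at 11.18 and 11.28 (95.4th percentile). The next were CXCR4 (6.26 and 6.02), CDX1 (5.70 and 5.74), GATA6 (5.62 and 5.70), HHEX (5.60 and 5.70), GATA4 (5.51 and 5.49) and APOA1 (5.37 and 5.50). AFP, the fetal albumin secreted by yolk sac tumours, was at 5.05 and 4.36, below background on both arrays, and CER1 (4.05 and 4.01), FGA (4.20 and 4.04) and RBP4 (4.38 and 4.34) were lowest.

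Among 17 trophectoderm and placenta genes, 7 (41.2%) were above background and 2 (11.8%) above the stricter threshold, against 69.3% and 45.1% of all genes. TFAP2A, a transcription factor of trophoblast, neural crest and surface ectoderm, stood at 12.32 and 12.29 (98.7th percentile). TEAD4, which acts early in trophectoderm but is also widely expressed, was at 7.73 and 7.78. Between the thresholds lay HAND1 (7.06 and 7.05) and CDX2 (5.84 and 5.84), the caudal factor that starts the lineage. PAPPA2 (4.18 and 4.13), PSG3 (4.36 and 4.11) and ELF5 (4.39 and 4.39) were lowest, and the placental hormone subunit CGA was at 4.79 and 4.67.

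Neuroectoderm was the lineage list with the most genes past the stricter threshold, 6 of 21 (28.6%), with 14 (66.7%) above background, close to the share of all genes. STMN2, a microtubule regulator of growing neurons, was brightest at 10.42 and 10.46 (90.5th percentile). SOX11, a factor of early neural cells, was at 8.92 and 8.95, the neuronal microtubule protein MAP2 at 8.90 and 8.92, and ZIC2 at 7.99 and 7.95. DCX (7.65 and 7.57) and the neural stem cell filament NES (7.30 and 7.28) completed the 6. PAX6, an early marker of neural commitment, was at 4.50 and 4.38, below background, as were ELAVL3 (4.48 and 4.59), NEUROG2 (4.66 and 4.57) and SOX1 (4.85 and 4.80).

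Of 23 mesoderm genes, 12 (52.2%) were above background and 1 above the stricter threshold. That gene was NKX2-5, a heart factor, at 7.30 and 7.28. HAND1, the muscle filament DES (6.90 and 6.92) and RUNX1 (6.72 and 6.42), a blood factor, followed between the thresholds. TBXT, the brachyury factor of the primitive streak, was at 5.18 and 5.20, just above background, while MYOD1 (4.00 and 3.94), TCF21 (4.15 and 4.22) and MYF5 (4.32 and 4.30) were lowest. The HOX genes pattern the body axis. They were above background in 5 of 27 cases (18.5%, against 69.3% of all genes) and above the stricter threshold in 0. HOXD4 (6.20 and 5.92), HOXD1 (5.84 and 5.83), HOXB2 (5.68 and 5.69), HOXD9 (5.33 and 5.28) and HOXB7 were the 5, the last on the edge at 5.14 and 5.38. HOXB6 (4.19 and 4.02), HOXD12 (4.10 and 4.23) and HOXC9 (4.31 and 4.26) were at the other end.

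Markers of other cell types that a culture could hold were low. Against 69.3% and 45.1% of all genes, 3 of 17 fibroblast, blood and endothelial markers (17.6%) were above background and 0 above the stricter threshold on both arrays. They were CD68 (7.18 and 7.01), a lysosomal protein used for macrophages, and the collagens COL1A1 (6.13 and 6.19) and COL3A1 (5.30 and 5.40). The blood marker PTPRC was at 4.25 and 4.23, the endothelial PECAM1 at 4.29 and 4.12 and the fibroblast DCN at 4.22 and 4.36, and LYZ (4.13 and 4.16) was the dimmest. Of 26 genes of adult organs, 4 (15.4%) passed the lower threshold and 0 the stricter. These 4 were CYP2E1 (6.19 and 6.35), SLC34A1 (5.54 and 5.58), SFTPC (5.30 and 5.32) and APOA4 (5.23 and 5.18), of liver, kidney, lung and gut. Haemoglobin beta (HBB, 3.92 and 4.08), the photoreceptor arrestin SAG (4.01 and 3.95) and prolactin (PRL, 4.07 and 3.93) were the lowest of these.

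**Figure D4:**
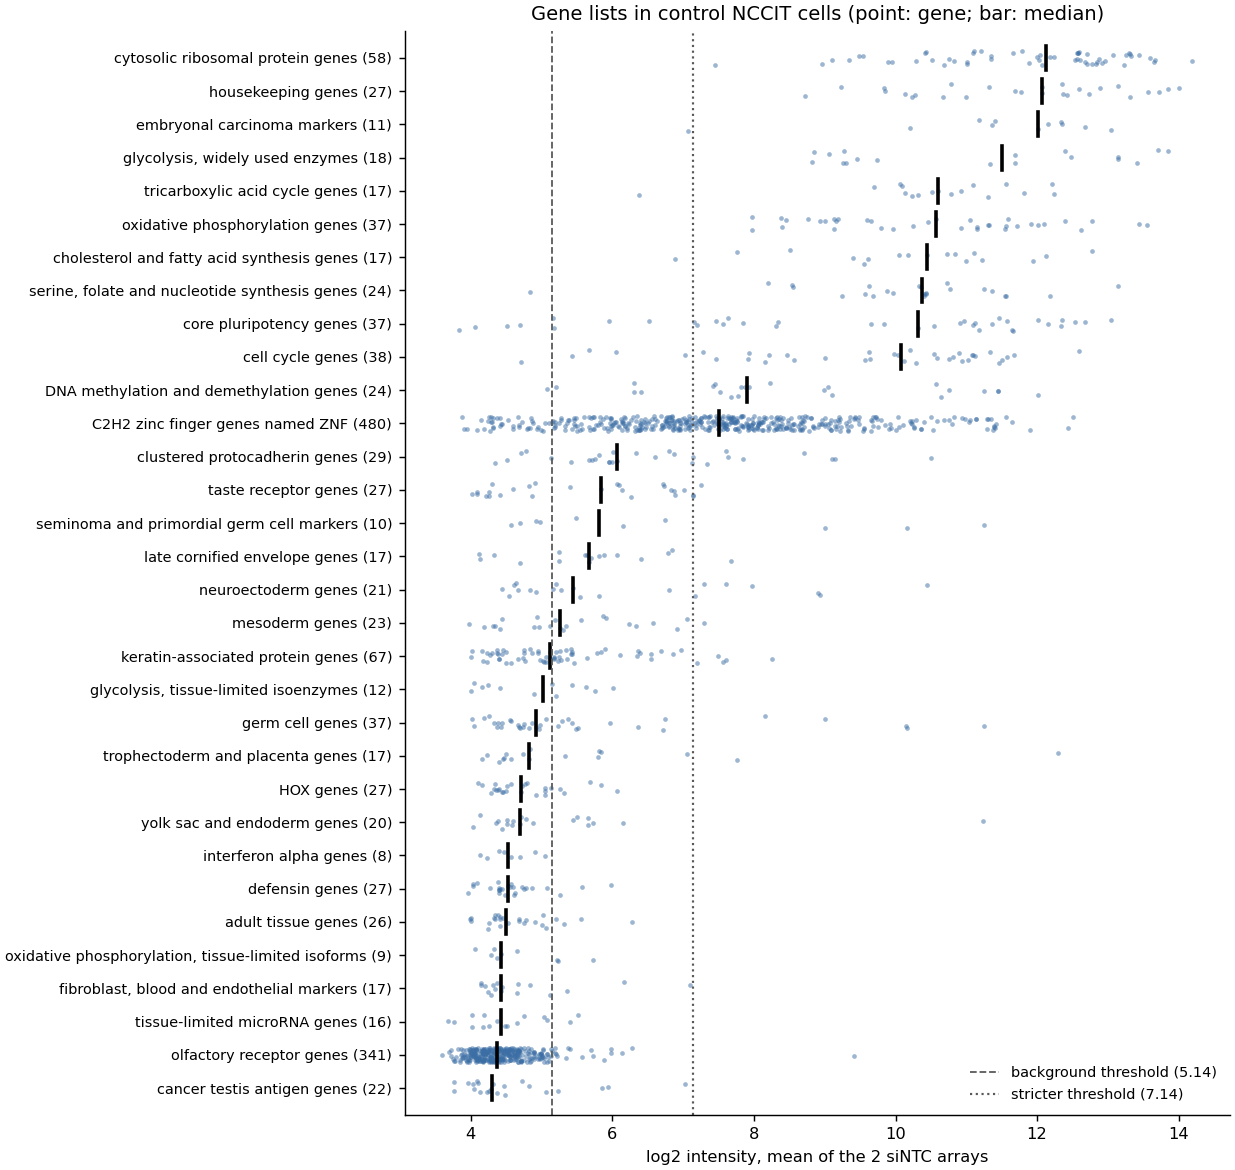
Mean log2 intensity on the siNTC arrays of every measured member (points) of each gene list with at least 5 members, with the list median (bar) and the number measured in brackets. Lists of ribosomal, housekeeping and metabolic genes and embryonal carcinoma markers have medians of 10.38 to 12.12, while the lineage lists have medians of 4.70 to 5.44 and include bright members such as TFAP2A at 12.30 and GPC3 at 11.23.

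The families that are silent in most cells served to set the thresholds, so their shares above them were partly fixed in advance. Of the 341 olfactory receptor genes, 15 were above their own threshold on both arrays. OR2B6 stood apart at 9.36 and 9.46 (80.5th percentile), and it alone passed the stricter threshold, with OR2L8 next (6.09 and 6.46), then OR4C12 (6.12 and 6.16) and OR1E2 (5.87 and 6.09). The dimmest were OR5M10, OR2F2 (3.67 and 3.70) and OR4D2 (3.72 and 3.71).

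The remaining silent families did not all sit at the olfactory receptor level. Of all genes, 69.3% passed the lower threshold. Taste receptor genes passed the lower threshold in 15 of 27 cases, led by TAS2R20 (7.14 and 7.36), TAS2R14 (7.24 and 7.05), TAS2R50 (7.11 and 7.15) and TAS2R4 (7.05 and 6.96). Late cornified envelope genes, of the outer skin, passed in 13 of 17 (LCE1D at 7.77 and 7.57, LCE2A at 6.98 and 6.70, LCE3B at 6.91 and 6.66 and LCE1A at 6.42 and 6.38). Keratin-associated protein genes, of hair, passed in 30 of 67, with KRTAP5-7 (8.50 and 8.02), KRTAP1-4 (7.60 and 7.62), KRTAP5-3 (7.55 and 7.58) and KRTAP5-1 (7.45 and 7.53) on top. Defensin genes passed in 3 of 27 (DEFB124 at 5.96 and 6.01, DEFB133 at 5.72 and 5.41 and DEFB114 at 5.24 and 5.26) and interferon alpha genes in 0 of 8. Members of these families resemble each other closely, so the value of a single member is uncertain, and a signal between 5.14 and 7.14 is given here without calling the gene expressed.

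The 15 brightest genes had varied roles. RPL5, a protein of the large ribosomal subunit, led at 14.21 and 14.17, beside the chaperone HSPA8 (14.17 and 14.20). The next were FAF2 (14.19 and 14.11), which acts in the degradation of endoplasmic reticulum proteins, MPLKIP (14.09 and 13.97) and the elongation factor EEF1A1 (14.05 and 13.98). Small nucleolar RNAs guide the modification of other RNAs, and SNORD116-15 (13.93 and 13.85), SNORD13 (13.93 and 13.84) and SNORD13P3 (13.77 and 13.78), annotated as a pseudogene, were in the top 15. YWHAE (13.85 and 13.88), GAPDH (13.80 and 13.90), PTMA (13.83 and 13.86), the linker histone gene H1-4 (13.81 and 13.81), SH3KBP1 (13.80 and 13.74), ACTB (13.71 and 13.75) and ENO1 (13.72 and 13.71) filled the other places. Of the 50 brightest genes, 42 code for proteins and 5 are annotated as small nucleolar RNAs.

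All 58 measured cytosolic ribosomal protein genes (79 were listed) and all 27 measured housekeeping genes (31 were listed) passed the stricter threshold, against 45.1% of all genes. The ribosomal protein genes had a median of 12.12 and 49 of them were in the top 10% of signals. After RPL5 came RPS28 (13.67 and 13.67), RPS3 (13.64 and 13.66) and RPL41 (13.66 and 13.52). The spread within the list was wide, down to RPL17 (9.18 and 9.03), RPL32 (8.95 and 8.96) and RPS29 (7.49 and 7.41). Proteins of 1 complex made in equal numbers thus differed in signal by over 6 log2 units, and probe brightness and copies of a gene cannot be told apart from RNA level here. Housekeeping genes ran from EEF1A1 through TUBB (13.59 and 13.55) down to PPIA and SNRPD3, then GUSB (9.25 and 9.21) and B2M (8.75 and 8.69). B2M, the light chain of HLA class I molecules, was the lowest of the 27, at the 72.0th percentile.

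Energy metabolism was read through enzymes that most cells use and relatives kept for certain tissues. All 18 widely used glycolysis genes passed the stricter threshold, with a median of 11.51. GAPDH, ENO1, LDHB (13.39 and 13.45) and PGK1 were the brightest, and HK1 (9.30 and 9.25), HK2 (8.91 and 8.79), PFKM (8.91 and 8.72) and ENO2 (9.10 and 9.01) were among the lowest. The glucose transporters SLC2A3 (12.43 and 12.35) and SLC2A1 (11.35 and 11.32) were both bright. Of 12 tissue-limited relatives, 5 (41.7%) were above background and 0 above the stricter threshold, against 69.3% and 45.1% of all genes. Their median was 5.02. The 5 were the transporters SLC16A8 (5.99 and 6.01) and SLC16A7 (5.62 and 5.62), PGAM2 (5.61 and 5.90), ENO3 (5.46 and 5.39) and LDHAL6B, on the edge at 5.14 and 5.15.

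The members of these pairs fell on opposite sides of the stricter threshold, though ENO3 and PGAM2 passed the lower threshold on both arrays and SLC2A4 on 1. GAPDHS, the sperm form of GAPDH, was at 4.24 and 4.23, and LDHC, the sperm lactate dehydrogenase, at 4.07 and 4.01, against LDHA at 12.47 and 12.48. PKLR, the liver and red cell pyruvate kinase, was at 4.74 and 5.03 where PKM was at 11.69 and 11.70. HK3 (4.34 and 4.47), SLC2A2 of liver and pancreas (4.25 and 4.06) and SLC2A4 of muscle and fat (5.33 and 5.07) were at or near background. The same held for sperm PDHA2 (4.35 and 4.30) beside PDHA1 (10.29 and 10.34), and for MAT1A of liver (4.87 and 4.79) beside MAT2A (13.16 and 13.14), both of which make S-adenosylmethionine, the donor for DNA methylation.

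**Figure D5:**
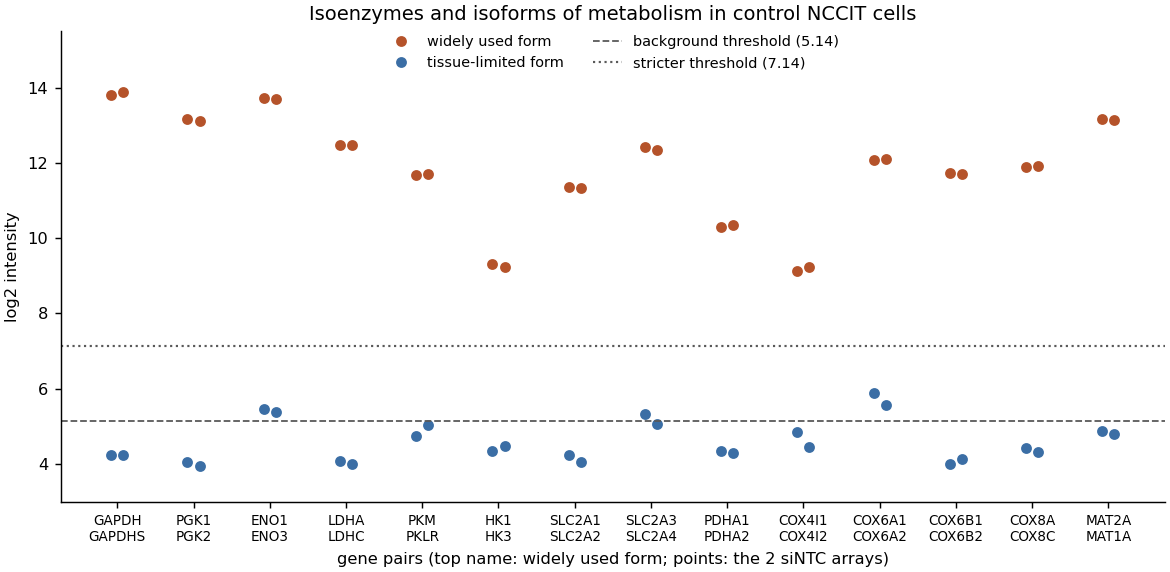
Log2 intensity of 14 pairs of related metabolic genes on the 2 siNTC arrays, the widely used form in orange and the tissue-limited form in blue. Every widely used form lies above the stricter threshold of 7.14 (dotted), from COX4I1 at 9.18 upwards, and every tissue-limited form lies below it.

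Mitochondrial genes were bright as well. All 37 oxidative phosphorylation genes passed the stricter threshold (median 10.57). The subunits of ATP synthase ATP5F1B (13.58 and 13.53) and ATP5MC1 (13.40 and 13.49), COX5B of cytochrome oxidase (12.79 and 12.77) and NDUFB5 of complex I (12.67 and 12.57) led, and ATP5PF (7.96 and 7.97), ATP5MC3 (8.05 and 7.90) and NDUFS7 (8.37 and 8.38) were lowest. Of 9 tissue-limited isoforms, 3 (33.3%) were above background and 0 above the stricter threshold, against 69.3% and 45.1% of all genes. The 3 were COX6A2 of muscle and heart (5.87 and 5.58), UCP3 (5.15 and 5.30) and ATP6V1B1 (5.22 and 5.21). Sperm COX6B2 (3.99 and 4.13), COX8C (4.44 and 4.32), UCP1 of brown fat (4.23 and 4.35) and COX4I2 of lung (4.85 and 4.46) were below, beside COX6B1 (11.73 and 11.72), COX8A (11.90 and 11.92) and COX4I1 (9.12 and 9.25). In the tricarboxylic acid cycle 16 of 17 genes passed the stricter threshold, led by SDHC (12.23 and 12.24), SDHD (12.21 and 12.21), MDH2 (11.79 and 11.85) and CS (11.52 and 11.59). The exception was SUCLG2, the GTP-forming subunit of succinyl-CoA ligase, at 6.44 and 6.31, while its ATP-forming counterpart SUCLA2 was at 10.08 and 10.18.

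Biosynthetic pathways showed a like pattern, set against 69.3% of all genes above background and 45.1% above the stricter threshold. For serine, folate and nucleotide synthesis, 23 of 24 genes were above both thresholds, with MAT2A, PHGDH (12.17 and 12.20), which starts serine synthesis, SHMT2 (11.60 and 11.52) and ATIC (11.53 and 11.57) the brightest. GLDC, the glycine-cleaving enzyme, was at 10.42 and 10.45, MTR at 8.13 and 8.26, and MAT1A was the 1 gene below background. For cholesterol and fatty acid synthesis, 17 of 17 were above background and 16 above the stricter threshold. SC5D (12.85 and 12.70), HMGCS1 (12.14 and 12.11) and the desaturase SCD (11.84 and 12.04) were highest, and the regulator SREBF1 was the exception at 6.91 and 6.87.

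The enzymes that write and remove DNA methylation were of interest because the study depleted TETs in these cells. Of 24 such genes, 23 (95.8%) were above background and 19 (79.2%) above the stricter threshold, against 69.3% and 45.1% of all genes. Their median was 7.90. TET1 was at 10.62 and 10.53 (91.4th percentile), TET2 at 7.71 and 7.91 (61.7th) and TET3 at 7.74 and 7.30 (58.3rd). The signals of TET2 and TET3 overlapped between arrays, and both were clear of that of TET1. Among the methyltransferases DNMT3B was followed by DNMT1, which copies methylation at replication (10.63 and 10.67), then DNMT3A (7.42 and 7.48) and the cofactor DNMT3L (6.25 and 6.37), which lay between the thresholds. ZBTB33 (11.50 and 11.41) and TRIM28 (11.44 and 11.45), a corepressor of imprinted loci and retroelements, came next after DNMT3B in the list. ZFP57 (5.26 and 5.15), the factor that keeps imprints methylated, was just above background, and APOBEC1 (5.15 and 4.99) passed on 1 array.

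Cell cycle genes were read as a sign of division. Of 38 measured, 37 (97.4%) were above background and 33 (86.8%) above the stricter threshold, against 69.3% and 45.1% of all genes. Their median was 10.08. CDK4 (12.58 and 12.60), the mitotic kinase PLK1 (11.67 and 11.67), CCNA2 (11.61 and 11.55) and CCNB1 (11.47 and 11.53) were the brightest, and the proliferation antigen MKI67 was at 10.77 and 10.75. The inhibitors lay at the other end, with CDKN2B at 4.68 and 4.74, CDKN1A (p21) at 5.54 and 5.31 and CDKN2A (p16) at 5.43 and 5.91. CDKN1B (p27) was an exception among inhibitors at 8.94 and 9.06. Of the D-type cyclins, CCND2 was at 10.67 and 10.50, CCND3 at 8.49 and 8.64 and CCND1 at 8.21 and 8.11.

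MicroRNA hairpins had values on the array for 173 genes. Above background were 50 (28.9%) and above the stricter threshold 5 (2.89%), against 69.3% and 45.1% of all genes. The miR-302 family, transcribed in pluripotent cells, gave 2 of the 3 measured values on its list, and both were bright. That list named 23 genes, so most of it has no value here. The mature sequences of the 2 bright members in RefSeq (GRCh38.p14) are printed with bases 2 to 8, the seed that pairs with targets, in capitals. The miR-106a sequence is shown because its seed is shifted by 1 base against that of the 2 members, and miR-208a and miR-223 as examples of heart and blood microRNAs.
hsa-miR-302a-3p, chr4:112648186-112648208, minus strand: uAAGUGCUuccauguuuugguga
hsa-miR-302b-3p, chr4:112648489-112648511, minus strand: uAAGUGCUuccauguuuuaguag
hsa-miR-106a-5p, chrX:134170244-134170266, minus strand: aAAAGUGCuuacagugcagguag
hsa-miR-208a-3p, chr14:23388602-23388623, minus strand: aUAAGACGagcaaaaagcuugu
hsa-miR-223-3p, chrX:66018937-66018958, plus strand: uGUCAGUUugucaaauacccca

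MIR302B was at 11.11 and 10.90 (94.2nd percentile) and MIR302A at 10.40 and 10.11 (88.9th), and the seed AAGUGCU is common to both. MIR106A was at 4.14 and 4.19, below background. Probes of a hairpin can read its precursor and the host transcript of a cluster, so these values are not levels of the mature forms. Of 16 tissue-limited microRNA genes, 2 were above background and 0 above the stricter threshold. MIR375, of pancreatic islets and other endocrine cells, was at 5.49 and 5.55 and MIR138-1 at 5.34 and 5.46. MIR208A (3.69 and 3.66), MIR184 (3.88 and 3.65) and MIR223 (4.12 and 3.91) were the lowest.

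Large families of regulators were spread over the whole range. Of 480 zinc finger genes named ZNF, 435 (90.6%) were above background and 275 (57.3%) above the stricter threshold (median 7.51, 58.1st percentile). The shares of all genes were 69.3% and 45.1%. ZNF626 (12.53 and 12.48), ZNF257 (12.50 and 12.37), ZNF207 (11.91 and 11.89) and ZNF146 (11.67 and 11.63) led, and ZNF479 (3.88 and 3.86), ZNF572 (3.95 and 3.86) and ZNF662 (3.94 and 3.96) were dimmest. Clustered protocadherins are adhesion proteins of which single neurons choose a few. Above background were 24 of 29 (82.8%), and 8 (27.6%) passed the stricter threshold. PCDHB5 (10.45 and 10.56), PCDHB2 (9.12 and 9.16), PCDHGB4 (9.05 and 9.15) and PCDHB3 (8.70 and 8.71) were highest, while PCDHB1 (4.32 and 4.35), PCDHB4 (4.51 and 4.52) and PCDHB6 (4.67 and 4.74) were silent by the same measure. Neighbouring members of the beta cluster were thus on opposite sides of background.

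The study sorted genes into high, moderate and low basal expression, and the lists were set against 3 groups of 6139 genes each, which met at log2 intensities of 5.34 and 8.25. The high group held 23 of the 37 pluripotency genes, 57 of the 58 ribosomal protein genes, all 27 housekeeping genes and 27 of the 38 cell cycle genes. In the low group lay 330 of the 341 olfactory receptor genes, 24 of 27 HOX genes, 24 of 26 adult tissue genes and 24 of 37 germ cell genes. The DNA methylation genes had 10 members in the high, 12 in the moderate and 2 in the low group.

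How far the control state was shared by the depleted cells was tested with limma, siNTC against the mean of the 3 depletions over all 8 arrays, with p-values adjusted over all 18417 genes. Above background on all 8 arrays were 12346 genes. A higher level in siNTC was called for 4452 genes (24.2%) and a lower one for 3038 (16.5%), 40.7% in all, of which 187 reached a 2-fold difference. The siNTC arrays correlated with depletion arrays at 0.989 to 0.991 and depletion arrays with each other at 0.995 to 0.999. Only siNTC received the non-targeting siRNA, so an effect of that reagent cannot be told apart from an effect shared by the depletions. Of the pluripotency genes, 14 were higher and 8 lower in siNTC, and the median difference was 0.07 on the log2 scale, against 0.03 over all genes. Of the 37 oxidative phosphorylation genes, 22 were higher and 8 lower (median difference 0.26). Of the 17 cholesterol and fatty acid synthesis genes, 13 were higher and 2 lower (0.22).

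Of the 37 germ cell genes, 6 were higher and 5 lower in siNTC and 26 were not called, with a median difference of 0.015. DPPA3 and TCL1B were among those lower in siNTC. DPPA3 had a lowest, median and highest value of 12.82, 12.84 and 12.98 on the 6 depletion arrays, all above the siNTC arrays, a difference of -1.63 ± 0.026 (siNTC minus depletions, log2, SE, n = 2 against 6; limma adjusted p = 5.38e-13). TCL1B, a cofactor of AKT kinases, was at 5.83 and 5.21 in siNTC and at 7.86, 7.96 and 8.06 on the depletion arrays, with no overlap (-2.44 ± 0.12, limma adjusted p = 5.99e-09). DNMT3B did not pass the test (0.06 ± 0.031, limma adjusted p = 0.164), and its siNTC values lay within the depletion range of 11.90 to 12.07. The other markers with higher signal in siNTC were PODXL by 0.66 ± 0.029, CRIPTO by 0.47 ± 0.031 and SOX2 by 0.13 ± 0.023, and L1TD1 was lower by -0.44 ± 0.028 (limma adjusted p of 2.62e-09, 8e-08, 0.000441 and 5.75e-08).

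Other members of the lists changed by at least 2-fold in 1 direction or the other. Over all genes, 118 called changes of this size were higher in siNTC and 69 lower. Higher were GUSB by 1.13 ± 0.064, NDUFB3 by 1.27 ± 0.045 and COX6B1 by 1.05 ± 0.039 (log2, SE). ZNF486 was at 11.62 and 11.12 in siNTC against 8.84, 8.91 and 9.02 (2.45 ± 0.09, limma adjusted p = 6.69e-10). LHX2, a forebrain factor, was at 6.70 and 6.89 against 5.38, 5.45 and 5.58 (1.33 ± 0.085, limma adjusted p = 6.29e-08). CCND1 was lower in siNTC, at 8.21 and 8.11 against 9.01, 9.34 and 9.55 (-1.13 ± 0.058, limma adjusted p = 1.03e-08). The groups did not overlap in any of these. MIR302A and MIR302B did not pass, with adjusted p of 0.532 and 0.561 in limma.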

How the data were processed

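Values were used as deposited: log2 intensities that had been normalized between arrays by the authors. Partek is the tool named in the submitters' processing notes, and the sources used here give neither its version nor how background was corrected and probes were summarized. Of 33297 transcript clusters, the annotation of the platform gave 1 gene symbol to 19460, several to 1754 and none to 12083. Clusters with 1 symbol were kept, and the brightest over all 8 arrays stood for a gene with several (769 genes), which left 18417 genes. A gene was above background when both siNTC arrays exceeded the threshold. Precision is limited by the number of arrays, and since separate cultures are not stated, a p-value here reflects the spread from array to array, which may be technical.

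The cells, gene lists and tests were chosen with earlier results of these data known. Named genes were the 6 markers, POU5F1 and NANOG, the 15 brightest genes, the 4 highest and 3 lowest of each list with every member above background in silent lists of 6 or fewer such members, isoenzyme pairs, the TETs and DNA methyltransferases, the 8 largest replicate differences, and list members with called changes of at least 2-fold; examples of known role were added after their values were seen, and not every name the rule gives is printed. siNTC was compared with the mean of the depletions in limma 3.58.1 (R 4.3.3; 4 groups, intensity trend, two-sided, Benjamini-Hochberg, called at an adjusted p under 0.05), tested on simulated data with known changes. Promoters and microRNAs came from RefSeq by gene ID or name. No genome build of the array is named, so coordinates are those of the RefSeq tables. Alternatives were other thresholds, clusters averaged, quantile normalization, arrays left out, a replicate block, no trend, brighter genes alone, a fold minimum, and 2 promoter choices added after the data were seen. Figures were drawn with matplotlib 3.10.9.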

Additional observations from a re-analysis of the deposited data

How the results depend on the processing

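The count of genes above background depended on the threshold. It was 12761 with olfactory receptors at the 95th percentile and 8307 with the other silent families. The measured genes of the 9 differentiated and germ cell lists (207 genes) passed in 69 cases, in 30 at the 99th percentile of the olfactory receptors and in 15 with the other silent families, so most of their calls rest on the lower threshold. For low-CpG promoters the counts were 886, 458 and 233 in the same order, and 2110 with the least CpG-rich window of each gene, chosen after seeing the data. The median percentile of the 6 markers was 98.5, 98.7 with clusters averaged and 97.8 among genes above background. Pluripotency and embryonal carcinoma genes, housekeeping, ribosomal and metabolic genes, and promoters of high and intermediate CpG content stayed within 1.5 times of their counts in every alternative run, and leaving out either siNTC array, averaging clusters or quantile normalization moved no such count by more.

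Called genes numbered 7490 against the depletions, and 954 with at least a 1.5-fold change. Leaving out 1 array gave 6034 to 7943. The low end came without siNTC replicate 1, and without siNTC replicate 2 the count was 6215; the lone siNTC array is then assumed to vary like the depletion arrays. The replicate block gave 7538. Deviations of same-numbered arrays from their group means correlated at 0.238 for siTET1 with siTET3 and at -0.043 to 0.028 for the other pairs of groups, and not every array correlated best with its own number. Pairing was therefore not established across the groups. The 8 genes followed singly kept their direction and their call in every alternative run for them. The small number of arrays per group limits every difference, and signals at background have no order.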

Other observations

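Genes whose symbols start with the same letters were set side by side, as groups of names and not of function, in 157 groups of at least 12 measured genes, chosen after the values were seen. The groups named here are examples from the upper and lower ends of the order by median. The proteasome regulatory subunits named PSMD had a median log2 intensity of 10.98, with 11 of 12 above the stricter threshold. Over all genes that share was 45.1%. Translation initiation factors named EIF had a median of 10.73 (44 of 49), SR splicing factors named SRSF 10.59 (12 of 12) and nucleoporins named NUP 10.25 (21 of 22). Mitochondrial ribosomal proteins followed, with MRPL at 9.79 (45 of 48) and MRPS at 9.70 (25 of 25). All 16 Integrator subunits named INTS and all 20 general transcription factor genes named GTF passed the stricter threshold, with medians of 9.21 and 9.45.

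Other groups were dim beside all genes, of which 69.3% were above background and 45.1% above the stricter threshold. Of 14 serine proteases named TMPRSS, 0 passed the stricter threshold and 1 was above background (median 4.43). Inward-rectifier potassium channels named KCNJ had a median of 4.48 with 1 of 13 past the stricter threshold, and serotonin receptor genes named HTR 4.53 with 1 of 17. Keratins named KRT passed in 2 of 48 cases, with KRT8 the brightest at 11.41, and cytochrome P450 genes named CYP in 4 of 47. Axonemal dyneins named DNAH passed in 1 of 13 cases, C-type lectins named CLEC in 1 of 27 and kallikreins named KLK in 0 of 15.

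Clusters without a single gene symbol also carried signal on the siNTC arrays. Of 1754 clusters with several symbols, 787 (44.9%) were above the stricter threshold on both arrays, and of 12083 with no symbol, 3320 (27.5%).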
